A study of Mus musculus with 30 samples.

Results

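Chromatin sites of mouse tendon fibroblasts that differed with blebbistatin in both of 2 separate experiments were examined. A site was included when it stood in the authors' deposited list of sites that differed between blebbistatin and neither drug, and overlapped by at least 1 base a site of the authors' deposited list of blebbistatin against DMSO from an ATAC experiment. Of the 1231 sites of the first list, 351 (28.5%) met this rule. They overlapped 347 of the 970 sites of the ATAC list (35.8%), in 352 overlapping pairs. The log2 folds and false discovery rates (FDR) of both lists were the values the sites were chosen by, so values from these comparisons describe the sites and test nothing.

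All libraries came from primary tail tendon fibroblasts of wildtype mice, kept in medium with 0.1% serum. The first list set 3 libraries with blebbistatin at 10 µM against 3 with neither drug, within an experiment that also had 3 libraries with doxycycline at 10 ng/mL and 3 with both. What doxycycline induced is not stated in the labels, and neither is the assay of these 12 libraries in particular, ATAC being the only genomic DNA protocol given. The ATAC experiment had 3 libraries each of DMSO, blebbistatin at 10 µM and Y27632 at 30 µM, and RNA was sequenced in 3 libraries each of the same treatments. The experiments share no library. The labels do not say whether libraries of a group came from separate mice or cultures, so p-values measure the spread between these libraries, which may be technical. The site lists hold group means only, so sites have no SD and no test here, and every site value below is the authors'.

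RNA depth was 23375386 to 37061737 reads in genes per library. All 10 tendon fibroblast markers examined were expressed, with a summed level of 813250 to 869302 normalised counts in DMSO and 768761 to 843803 with blebbistatin. Most of the sum came from Col1a1, Col1a2 and Col3a1. By limma, 3 of the 10 were called lower and 4 higher with blebbistatin, where 26.9% and 26.1% of all genes tested were. Leukocyte markers summed to 5245 to 5815 in DMSO and 7584 to 8499 with blebbistatin. Of these 5, 4 were detected and called higher, and Cd3e was at 0 in every DMSO and blebbistatin library. Endothelial markers summed to 3196 to 3279 in DMSO and 2070 to 2331 with blebbistatin, nearly all of it from Tek. Cdh5, Kdr and Vwf went the other way, with every blebbistatin library above every DMSO library, and the values of Pecam1 overlapped. The median log2 change of the 4 endothelial markers tested was 0.45. Ckm and Myod1 of the muscle list were at 0 in these libraries. Skeletal muscle, keratinocyte and chondrocyte markers summed to at most 234.3 in any DMSO or blebbistatin library. No gene of these marker lists was linked to a site found in both experiments, and the part of other cells in the results below was not tested.

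Blebbistatin blocks the motor activity of non-muscle myosin II, the motor that pulls on actin filaments, and Y27632 is a kinase inhibitor that lowers its activation. Contractile cells on stiff surfaces keep the co-activators YAP and TAZ in the nucleus, where they bind DNA through TEAD factors, mostly at enhancers far from promoters. Genes such as Ccn1 (Cyr61), Ccn2 (Ctgf) and Amotl2 are classical targets. ATAC sequencing reads DNA that a transposase can reach, so a lower value means less accessible chromatin.

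The ATAC list carries the positions of a motif that the authors found de novo, named in the column header as best matching TEAD, whose core mostly reads GGAATG or, on the other strand, CATTCC, with GGAATT or AATTCC in many other matches. The matches below lie in sites found in both experiments and occur singly, in pairs and in an array. The array is nearest 4930428D20Rik, which was at 0 in every RNA library, and the other matches are near genes described later. Bases are on the forward strand of mm10, and capitals mark the 6 core positions, which read GGAATT or AATTCC instead at Amotl2, Ccn2, Tead3 and Acta2 and in the last match at 4930428D20Rik.
Thbs1, chr2:118128247-118128256: gtgCATTCCt
Amotl2, chr9:102699699-102699708: tGGAATTctt
Amotl2, chr9:102699712-102699721: ataAATTCCa
Ccn1, chr3:145703560-145703569: aaaCATTCCa
Ccn1, chr3:145703569-145703578: agaCATTCCt
Ccn2, chr10:24476444-24476453: aGGAATTcca
Ccn2, chr10:24476454-24476463: ccaAATTCCt
Col5a2, chr1:45580641-45580650: tcaCATTCCt
Col5a2, chr1:45580650-45580659: tgaCATTCCt
Tead3, chr17:28340772-28340781: ccaAATTCCt
Acta2, chr19:34265811-34265820: ccaAATTCCa
Npr3, chr15:11836099-11836108: aGGAATGcag
4930428D20Rik, chr16:69790864-69790873: aGGAATGtgg
4930428D20Rik, chr16:69790876-69790885: tGGAATGcca
4930428D20Rik, chr16:69790887-69790896: tGGAATGcca
4930428D20Rik, chr16:69790896-69790905: aGGAATTtgg

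In the site beside Col5a2 the starts of the 2 matches are 9 bases apart on the same strand, as in that beside Ccn1. The starts are 13 bases apart, on opposite strands, at Amotl2, and 10 bases apart at Ccn2. The site beside 4930428D20Rik holds 4 matches on 1 strand at steps of 12, 11 and 9 bases. Parts of 3 sites could be read with their surroundings, since they lie in RefSeq GRCm38.p6 promoter windows. The part in the window of Gm42294 is shown, on the forward strand, because it holds a listed match.
Site nearest Tnfsf15, chr4:63771482-63771602: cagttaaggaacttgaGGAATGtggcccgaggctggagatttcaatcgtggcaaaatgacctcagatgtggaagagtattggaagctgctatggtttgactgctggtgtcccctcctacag
The capitals mark the core of its single match. This site runs from 63771395 to 63771602 on chromosome 4 and had log2 folds of -1.49 and -1.43 in the authors' deposited tables. Of the other two, the site nearest Gm13315 holds GGAATG once in the bases read but has 0 listed matches, and the site nearest Plekha7 holds neither GGAATG nor CATTCC there.

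Of the 351 sites, 350 were lower with blebbistatin in both experiments and 1 was higher in both. Sites listed lower made up 1.77% of about 68975 sites tested without doxycycline and 1.52% of about 62847 tested in the ATAC experiment, and sites listed higher 0.0174% and 0.027%. Since these lists define the set, nothing is read from the counts. In the list without doxycycline the median log2 fold of the sites found in both was -1.25, with quartiles of -1.44 and -1.12 and a lowest value of -2.21. In the ATAC list the median of the 347 overlapped sites was -1.63, with quartiles of -1.81 and -1.51 and a lowest value of -2.56. The fold was larger in the ATAC list at 326 of the 351 sites, and the ATAC fold minus the other fold had a median of -0.39 on the log2 scale. The list without doxycycline was cut at an FDR of 0.05 and an absolute log2 fold of 1. The ATAC list was cut at an FDR of 0.05 alone, and its smallest absolute log2 fold was 1.24. With these unlike cuts, the sizes of the folds at these sites cannot be compared between the experiments. Across the 350 sites lower in both, which are not replicates and share the libraries of each experiment, the 2 log2 folds were correlated at 0.36 (Pearson) and 0.27 (Spearman). The log2 levels without drug had a Pearson correlation of 0.68. At 61 sites both log2 folds were -1.5 or below, and 118 sites had an FDR under 0.01 in both lists.

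**Figure D1:**
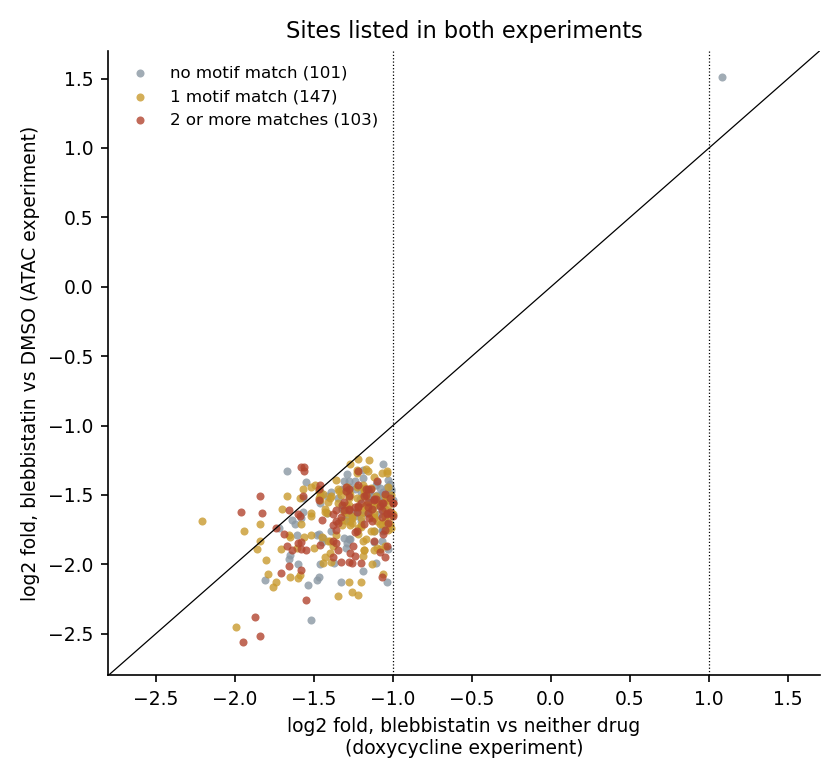
Each point is 1 of the 351 sites, with the authors' log2 fold of blebbistatin against neither drug on the x axis and of blebbistatin against DMSO in the ATAC experiment on the y axis, coloured by the number of TEAD-like matches; dotted lines mark the fold threshold of the first list and the solid line equal folds. All points but 1 lie at -1 or below on the x axis, and most lie under the line of equal folds.

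The share of sites found again differed along the lists. The list without doxycycline was divided by the authors' p into 4 groups of nearly equal size. Of the 308 sites with the smallest p, 152 were also in the ATAC list (49.4%), against 97 of 308 (31.5%), 64 of 308 (20.8%) and 38 of 307 (12.4%) in the following groups. Divided in the same way, the ATAC list had shares of 42.4%, 43.2%, 33.1% and 24.4%. The sites found in both had a median width of 297 bases, against 232 for the 880 other sites of the list without doxycycline, and a median log2 level without drug of 6.42 against 6.02. At 231 of the 351 sites the shorter site lay wholly inside the longer one, and the median overlap was 246 bases. The smallest overlap was 77 bases, at chromosome 17, 13779115 to 13779191, in an intron of Afdn, with log2 folds of -1.83 and -1.63. Just outside the rule, a site of the list without doxycycline nearest Dpysl3 lay 34 bases from an ATAC site, with folds of -1.12 and -1.56, and one nearest Sipa1l1 at chromosome 12, 82258363 to 82258688, lay 55 bases away, with folds of -1.28 and -1.52.

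None of the sites lay in a promoter by the authors' annotation. Of the 351 sites, 201 were intergenic (57.3%), 136 intronic (38.7%), 7 at transcription ends, 5 in 3′ UTRs and 2 in other exons. The other 880 sites of the list without doxycycline had 13 in promoters, with 50.7% intergenic and 44.8% intronic. Sites found in both lay a median of 47217 bases from the nearest transcription start, against 43756 for the others. Only 3 were within 1 kb of a start, 53 were at 1 to 10 kb, 126 at 10 to 50 kb, 58 at 50 to 100 kb and 111 farther away. Some were grouped along the genome, with 19 pairs of neighbours within 10 kb of each other and 31 within 50 kb.

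The sites with the lowest sum of the 2 folds are described first, among those with an FDR under 0.01 in both of the authors' deposited tables. The lowest lay 77129 bases from Col5a2, a fibrillar collagen chain, at chromosome 1, 45580411 to 45580841. Its log2 level was 6.97 with neither drug and 5.02 with blebbistatin, a fold of -1.95, and 7.14 in DMSO and 4.58 with blebbistatin in the ATAC experiment, a fold of -2.56. Next came an intronic site of Tmeff2 whose nearest start is that of Cavin2, which encodes a caveola protein, at chromosome 1, 51143664 to 51144020, with folds of -1.99 and -2.45. A site 200421 bases from Nt5c1b had folds of -1.84 and -2.52, and one nearest Mir710, 9233 bases from Cpe, had -1.87 and -2.38. A site 14746 bases from Cald1, which encodes the actin-binding protein caldesmon, had -1.81 and -2.11, and an intergenic site nearest Gm11351 had -1.52 and -2.40. The sites by Col5a2 and Mir710 hold 2 and 3 TEAD-like matches, the one by Nt5c1b holds 2 with another only in the overlapping ATAC site, the one in Tmeff2 holds 1, and those by Cald1 and Gm11351 hold 0. The single site higher in both experiments lay in an intron of Adam12, which encodes a membrane metalloprotease, at chromosome 7, 134163878 to 134164006. Its log2 level was 4.39 with neither drug and 5.47 with blebbistatin, a fold of 1.08 at an FDR of 0.0373, and its ATAC level was 5.47 in DMSO and 6.99 with blebbistatin, a fold of 1.51 at an FDR of 0.0298. Like every other ATAC site listed higher, it has 0 TEAD-like matches.

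The authors' deposited list of blebbistatin against no blebbistatin, both with doxycycline, uses none of the libraries of the rule. It held 115 of the 351 sites (32.8%), every one of them lower, where sites listed lower made up 8.73% of about 72539 tested. The median fold there was -1.18, from -1.81 to -1. The 880 sites not found in the ATAC list were held at nearly the same share, 293 sites or 33.3%, with a median of -1.14. Both shares rose with the fold without doxycycline. Of sites found in both, 42.6% were in this list at a fold of -1.5 or below, 39.4% from -1.5 to -1.25 and 24.9% above that, against 45.2%, 40.0% and 30.1% of the others. No test of the difference between these shares was made.

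The remaining lists share libraries with the rule, so their values are set side by side only. The doxycycline list, which uses the libraries with neither drug, held 101 of the sites (28.8%), all higher with doxycycline with a median fold of 1.18, where sites listed higher made up 8.97% of about 81359 tested. The share was 17.8% of the other 880 sites, 154 higher and 3 lower. The Y27632 list, which uses the ATAC DMSO libraries, held 78 of the sites (22.2%), all lower with a median of -1.34, where sites listed lower made up 0.285% of about 61812 tested. It held 13 of the other 880 sites (1.48%). A site missing from a list did not pass its thresholds or was not tested, so absence does not mean that nothing changed there. In all, 145 sites were in none of these 3 lists and 13 were in all 3. The site by Mir710 was among the latter, with authors' folds of -1.81 for blebbistatin with doxycycline, 1.10 for doxycycline and -2.05 for Y27632.

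**Figure D2:**
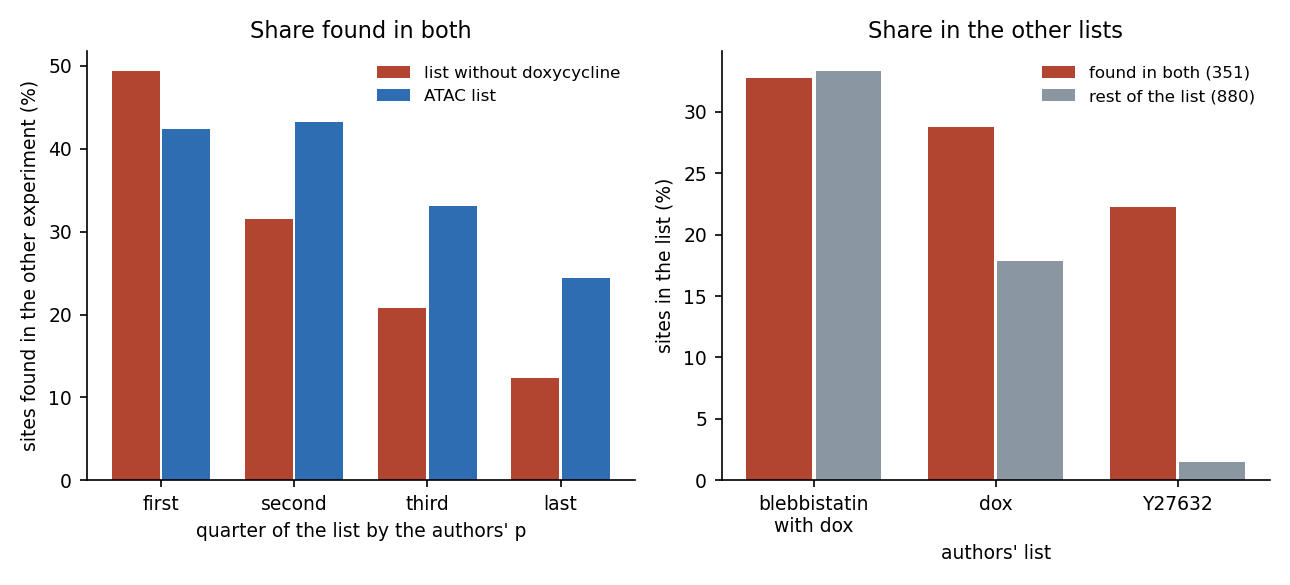
The left bars give the percent of sites found in the other experiment in 4 groups of each list, ordered by the authors' p, and the right bars the percent of the 351 sites found in both and of the 880 other sites that lie in each of 3 further lists. The left bars fall from 49.4% to 12.4% in the list without doxycycline, and on the right the bars for blebbistatin with doxycycline stand at 32.8% and 33.3%.

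TEAD-like matches were listed in 246 of the 347 ATAC sites found in both experiments (70.9%) and in 357 of the 623 others (57.3%). All 357 were among the 607 others listed lower, 58.8% of those. Sites with 2 or more matches numbered 101 (29.1%) and 99 (15.9%). The sites found in both were also wider, with a median of 293 against 242 bases, and held 3.27 matches per kb against 2.93. Within classes of width the shares were 55.9% and 46.3% under 200 bases, 67.0% and 59.2% from 200 to 300, 82.1% and 66.4% from 300 to 400, and 77.5% and 69.8% from 400 bases. Among sites listed lower, the shares by ATAC fold were 68.8% and 64% at -2 or below and 74.9% and 58.5% from -2 to -1.5. Above -1.5 they were 59.2% and 58.0%. The exact letters GGAATG or CATTCC stood in a listed match at 51.0% and 42.7% of sites. As a scale for these letters, 4817 of 32851 RefSeq promoter windows of 300 bases (14.7%) hold either one on a strand, though those windows were searched whole and the sites only at the listed matches. By the authors' annotation none of the sites found in both lay in a promoter, so the windows are another class of sequence and no enrichment is read from this. The motif came from the authors' own search, and the sites it was found on are not given in the sources used here, so the shares are a description.

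The sites found in both held 367 listed matches, 196 on the forward and 171 on the reverse strand, in 94 different forms. The most frequent were aGGAATGcag with 12 matches, and aGGAATGtgg and aGGAATTtgg with 11 each. Matches lay near the centres of the ATAC sites, 52.6% within 50 bases of the centre, against 60.4% of the 470 matches in the other sites. The sites found in both were wider, so this fixed window covers less of them, and nothing is read from the difference. Among 121 pairs of neighbouring matches, 31 had starts at most 20 bases apart, and 9 bases was the most frequent distance, with 12 pairs. Counted by site of the list without doxycycline, 250 of the 351 (71.2%) had a match in the overlapping ATAC site and 101 had none. The median folds of sites with and without a match were -1.26 and -1.24 without doxycycline and -1.64 and -1.60 in the ATAC experiment. The list of blebbistatin with doxycycline held 32.8% of the sites with a match and 32.7% of those without, the Y27632 list 24.4% and 16.8%, and the doxycycline list 26.8% and 33.7%.

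**Figure D3:**
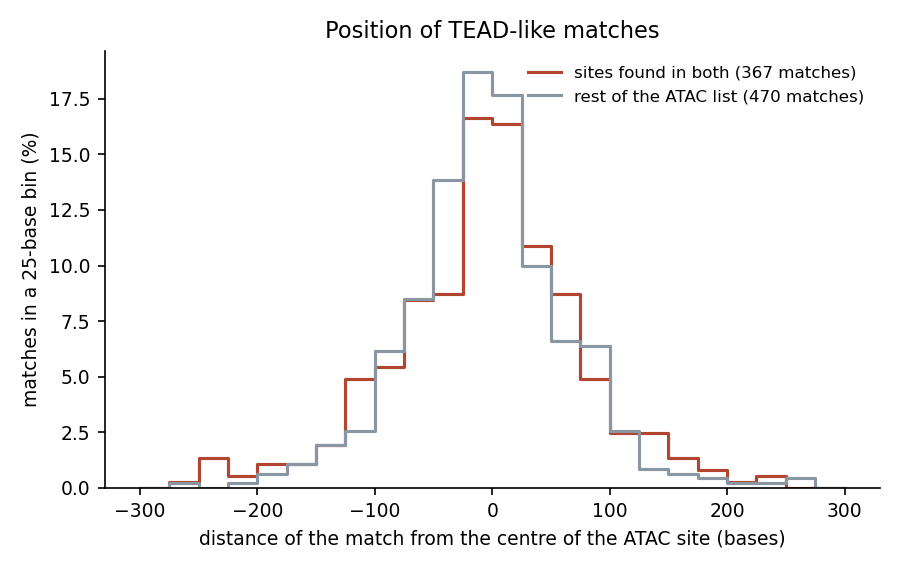
The percent of TEAD-like matches in each 25-base bin is drawn against the distance from the centre of the ATAC site, for the 367 matches in sites found in both experiments and the 470 in the rest of the ATAC list. Both distributions peak at the centre, and the bins on either side of it hold 16.6% and 16.3% of the matches in sites found in both.

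RNA libraries had no part in choosing the sites, and the RNA of the genes that the authors annotate to them was mostly lower with blebbistatin. The sites were annotated to 313 genes, of which 309 were found in the RNA tables and 199 had a mean of at least 10 normalised counts and were tested. With limma at an adjusted p under 0.05, 121 of the 199 were lower (60.8%) and 27 higher (13.6%), where 26.9% of all 14882 genes tested were lower and 26.1% higher. Their median log2 change was -0.35, against 0.0021 for all genes. Changes of at least 1 on the log2 scale were called lower for 35 and higher for 9 of these genes, against 2.94% and 3.64% of all genes tested. Genes annotated to the other sites of the list without doxycycline were lower in 218 of 459 cases (47.5%) and higher in 107. Genes annotated to the other sites of the ATAC list were lower in 162 of 327 (49.5%).

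The share was highest for the nearest genes. Of genes with a site found in both within 10 kb of their start, 25 of 33 tested were lower (75.8%) and 3 higher, with a median log2 change of -0.47. The counts were 44 lower and 10 higher of 75 at 10 to 50 kb, 24 and 5 of 36 at 50 to 100 kb, and 28 and 9 of 55 beyond 100 kb, and no test between these classes was made. Of the 19 tested genes with 2 or more sites, 14 were lower and none was higher with limma. Of 143 tested genes with a TEAD-like match in a site 61.5% were lower, and of 56 without one 58.9%. For scale, 430 other protein-coding genes lay within 100 kb of a site without being annotated to one, a set chosen after the first results were seen. Of the 316 tested, 109 were lower (34.5%) and 64 higher (20.3%), with a median of -0.06. In bulk libraries, fewer cells of a type and less RNA per cell cannot be told apart.

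**Figure D4:**
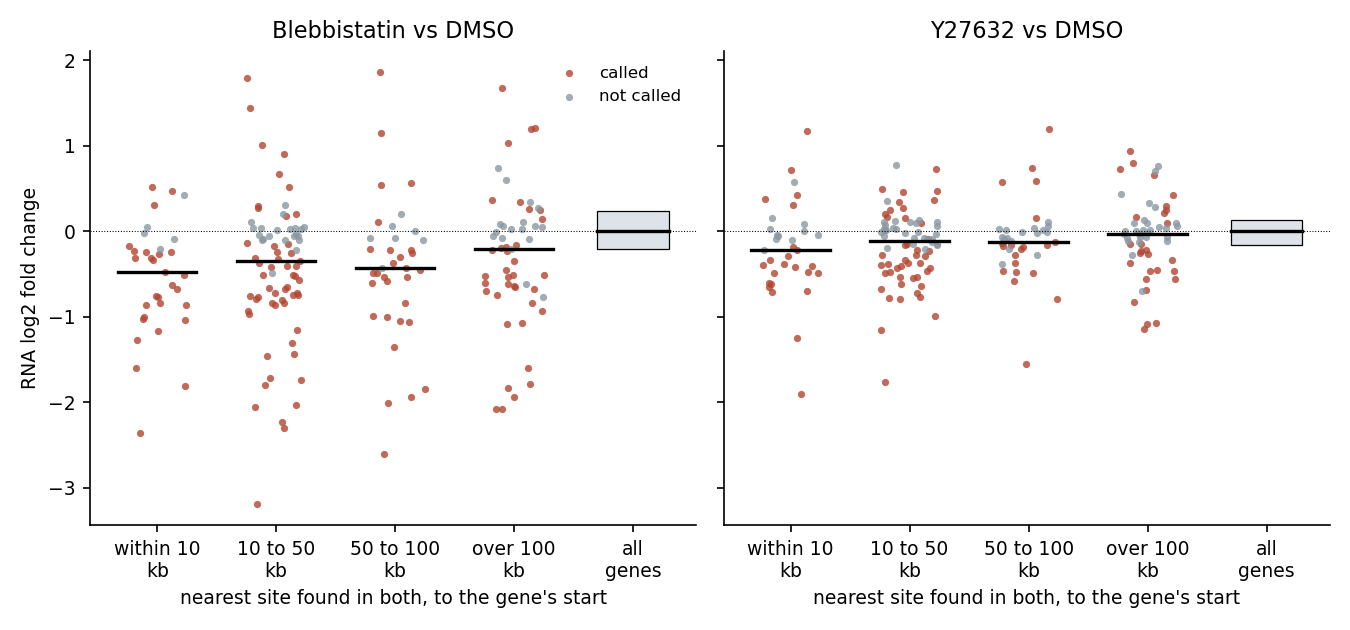
Points are the linked genes tested, by the distance of the nearest site found in both to the gene's start, with the limma log2 fold change of blebbistatin (left) and Y27632 (right) against DMSO; black lines are medians and the box gives the quartiles of all genes tested. With blebbistatin the medians are -0.47, -0.35, -0.43 and -0.21 from the nearest class to the farthest.

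Genes on a list of 24 YAP/TAZ targets formed the first group. With limma, 17 of the 24 were lower with blebbistatin and 5 higher, where 26.9% of all genes tested were lower and 26.1% higher. Their median log2 change was -0.50. A site found in both was linked to 6 of them, of which 5 were lower, where 199 of all 14882 genes tested had such a site. Amotl2, which encodes a junctional angiomotin that binds YAP, had 21419.7, 21635 and 21423 normalised counts in the 3 DMSO libraries and 4321, 4822 and 4652 in the 3 blebbistatin libraries. The groups lay far apart, and the log2 change was -2.23 (SE 0.0384, limma adjusted p = 1.59e-12). One site found in both lay 17222 bases before Amotl2, at chromosome 9, 102699537 to 102699869, with folds of -1.66 and -2.01, and 3 more lay 972, 26148 and 29451 bases past its other end, annotated to Gm5627, with folds of -1.55, -1.19 and -1.13 without doxycycline and -2.26, -2.05 and -1.69 in the ATAC experiment. Gm5627 itself had 4.41 to 7.94 normalised counts in DMSO and 0 to 5.19 with blebbistatin, too few to test. Cyr61, the older symbol of Ccn1, which encodes a secreted matricellular protein, had 9898, 10690.5 and 10942 normalised counts in the 3 DMSO libraries and 2346, 2666 and 2818 in the 3 blebbistatin libraries. Every blebbistatin library was lower than every DMSO library, with a log2 change of -2.01 (SE 0.0593, limma adjusted p = 7.3e-11). Its 2 sites lay beside each other at chromosome 3, 145702922 to 145703062 and 145703316 to 145703851, 52937 and 53331 bases from the gene, with folds of -1.36 and -1.20 without doxycycline and -1.61 and -1.56 in the ATAC experiment.

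Ctgf, the older symbol of Ccn2, which encodes a related matricellular protein, had 3137, 3399.9 and 3823 normalised counts in the 3 DMSO libraries and 934, 1238 and 1252 in the 3 blebbistatin libraries. The blebbistatin libraries were all lower, with a log2 change of -1.60 (SE 0.0995, limma adjusted p = 4.52e-08). Both of its sites lay 118897 to 119112 bases from the gene on chromosome 10, at 24476180 to 24476330 and 24476386 to 24476545, with ATAC folds of -1.68 and -1.66. Rbms3, which encodes an RNA-binding protein and has an intronic site with folds of -1.19 and -1.94, changed by -1.05 (SE 0.0414, limma adjusted p = 8.09e-10). Ccdc80, which encodes a secreted matrix protein and has a site 21681 bases away with folds of -1.65 and -1.80, changed by -0.51 (SE 0.0295, limma adjusted p = 2.31e-08). Asap1, which encodes a GTPase-activating protein for Arf, was the exception among these 6, with 5722, 5371 and 5308 normalised counts in the 3 DMSO libraries and 5662, 5392 and 5560.4 in the 3 blebbistatin libraries. The groups overlap, and the log2 change of 0.02 (SE 0.0365, limma adjusted p = 0.691) was not called, although its intronic site at chromosome 15, 64326239 to 64326427, had folds of -1.84 and -1.83.

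Some genes of actin filaments and contraction were also linked to the sites. Of 21 tested actin and SRF targets 17 were lower and none higher with limma, against the same shares of all genes. The median log2 change of the 21 was -0.63. A site found in both was linked to 2 of them, Acta2 and Tpm4, where 199 of all 14882 genes tested had one. Acta2, smooth muscle actin, had 4048, 4009.9 and 4322 normalised counts in the 3 DMSO libraries and 2043, 1935 and 2349 in the 3 blebbistatin libraries. The groups did not overlap, with a log2 change of -0.97 (SE 0.0608, limma adjusted p = 4.86e-08), and the site 10050 bases from the gene at chromosome 19, 34265635 to 34266112, had folds of -1.12 and -1.63. Tpm4, a tropomyosin that coats actin filaments, had 23455, 24749 and 25806 normalised counts in the 3 DMSO libraries and 14086, 13620.2 and 13499 in the 3 blebbistatin libraries. Its blebbistatin values were all lower, with a log2 change of -0.84 (SE 0.037, limma adjusted p = 2.1e-09), and its intronic site had folds of -1.66 and -1.96. None of the 23 adhesion genes examined had a site found in both, where 199 of all 14882 genes tested had one, so little is read from this. With limma, 17 of the 23 were lower and 3 higher, where 26.9% of all genes tested were lower and 26.1% higher.

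The 5 matrix genes with a site found in both were lower, Fbn2 not in every alternative. Of 30 matrix structure genes 15 were lower and 9 higher with limma, and of 26 matrix degradation genes 8 were lower and 15 higher, where 26.9% of all genes tested were lower and 26.1% higher. The 9 higher structure genes and the 8 lower degradation genes are near those shares. The medians of the lists were -0.12 and 0.21 on the log2 scale. Thbs1, a matricellular glycoprotein, had 246916, 265062 and 251542 normalised counts in the 3 DMSO libraries and 46605, 53697 and 54287 in the 3 blebbistatin libraries. The groups lay far apart, with a log2 change of -2.31 (SE 0.0538, limma adjusted p = 1.15e-11). Its site begins 251 bases past the end of the gene at chromosome 2, 118127384 to 118128711. This was the site with the smallest p in the authors' deposited list without doxycycline, with log2 levels of 10.2 and 8.6 there, a fold of -1.60, and of 9.51 in DMSO and 7.41 with blebbistatin in the ATAC experiment, a fold of -2.10. Another 2 sites lay 155870 and 200736 bases before Thbs1 and were annotated to 4930412B13Rik, which was at 0 in every blebbistatin library and in 2 of 3 DMSO libraries.

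Adamts5, an aggrecan-cleaving protease, had 34852, 36966 and 34422 normalised counts in the 3 DMSO libraries and 10239, 10108 and 10397 in the 3 blebbistatin libraries. The groups did not overlap, and the log2 change was -1.79 (SE 0.0332, limma adjusted p = 2.61e-12). Its sites were remote, 279088 and 342469 bases from the gene on chromosome 16, with folds of -1.36 and -1.32 without doxycycline and -1.39 and -1.72 in the ATAC experiment. Col5a2, near the site with the lowest sum of the 2 folds, had 248410.0, 254041 and 243089 normalised counts in the 3 DMSO libraries and 177208, 183392 and 172682 in the 3 blebbistatin libraries. Its libraries separated by group, but the log2 change was small, at -0.48 (SE 0.0365, limma adjusted p = 2.78e-07). Fbn2, a fibrillin with an intronic site on chromosome 18, was expressed at a low level, with 19.9, 27.6 and 26.4 normalised counts in the 3 DMSO libraries and 14.5, 13.2 and 11.9 in the 3 blebbistatin libraries. Its log2 change of -0.84 (SE 0.26, limma adjusted p = 0.0167) was not called with DESeq2 (-0.90, adjusted p = 0.102) or with limma without DMSO replicate 2 (-0.75, adjusted p = 0.0605) or DMSO replicate 3 (-0.78, adjusted p = 0.0506). Among 15 genes of YAP, TAZ, the TEAD factors and their partners, 6 were lower and 5 higher with limma, where 26.9% and 26.1% of all genes tested were, and the median log2 change was -0.05. Tead3, one of the DNA-binding TEAD factors, had 1757, 1796 and 1785 normalised counts in the 3 DMSO libraries and 780.1, 835 and 769.9 in the 3 blebbistatin libraries. The groups did not overlap, with a log2 change of -1.16 (SE 0.045, limma adjusted p = 6.97e-10), and its intronic site at chromosome 17, 28340548 to 28340934, had folds of -1.26 and -1.67. The cofactor genes Vgll3 and Vgll4, named after their values were seen, also had sites and changed by -1.46 (SE 0.03, limma adjusted p = 4.41e-12) and 0.67 (SE 0.0435, limma adjusted p = 6.56e-08).

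**Figure D5:**
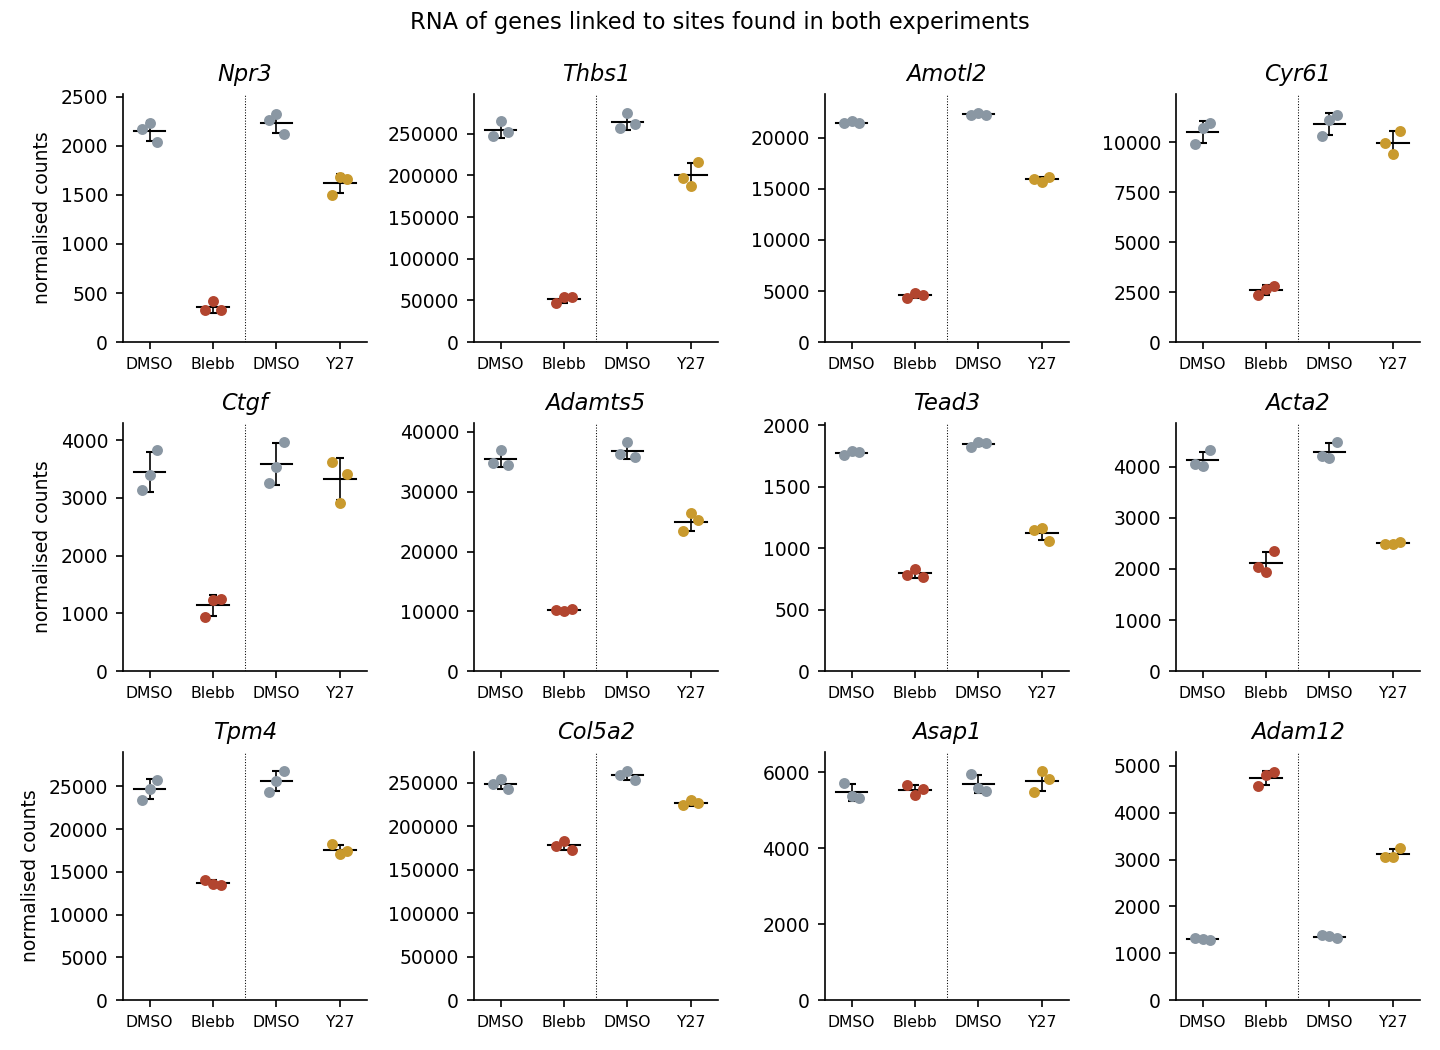
Normalised counts per library are shown for 12 genes linked to sites found in both experiments, with DMSO and blebbistatin from 1 table and DMSO and Y27632 from the other; points are libraries, and bars are the mean and SD of 3. Blebbistatin libraries lie below DMSO libraries in 10 genes, overlap them for Asap1 and lie above them for Adam12.

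Outside the lists, the lowest changes among linked genes included Npr3, the clearance receptor for natriuretic peptides, with 2175, 2237 and 2043 normalised counts in the 3 DMSO libraries and 324, 421 and 324 in the 3 blebbistatin libraries. The groups lay far apart, and the log2 change was -2.60 (SE 0.0877, limma adjusted p = 2.21e-10). Its sites lay 3627 and 44854 bases from the gene on chromosome 15, and 69584 and 110789 bases from its start. Their folds were -1.22 and -1.15 without doxycycline and -1.78 and -1.67 in the ATAC experiment. Cdh6, a cadherin, changed by -2.07 (SE 0.0658, limma adjusted p = 1.33e-10), Lurap1l by -1.94 (SE 0.0528, limma adjusted p = 4.46e-11) and Sh2d4a, an SH2 adaptor, by -1.93 (SE 0.0765, limma adjusted p = 8.28e-10). Their sites lay 182216, 217343 and 84481 bases away, the last in an intron of Psd3.

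Some linked genes rose. Adam12, whose site was higher in both experiments, had 1330.5, 1309 and 1279.7 normalised counts in the 3 DMSO libraries and 4567, 4794 and 4862 in the 3 blebbistatin libraries. All blebbistatin libraries were above the DMSO libraries, and the log2 change of 1.86 (SE 0.0372, limma adjusted p = 3.85e-12) was the highest among the genes named. The other 3 named genes rose while their sites were lower. Antxr1, which encodes a collagen-binding receptor, changed by 1.15 (SE 0.0372, limma adjusted p = 1.57e-10), and its intronic site had folds of -1.58 and -1.71. Ppfibp2, a liprin, changed by 1.45 (SE 0.114, limma adjusted p = 4.32e-07), and its intronic site had folds of -1.07 and -1.66. Plxna4, a semaphorin receptor, changed by 1.20 (SE 0.156, limma adjusted p = 3.61e-05), and its site, 207435 bases away in an intron of Chchd3, had folds of -1.41 and -1.55.

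The most sites linked to a gene were 3, at 3 genes, and Fam150a and Gm5627 among them were expressed too weakly to be tested. Fam150a, the older symbol of Alkal1, which encodes a ligand of the receptor kinase ALK, had 3 sites, 47117 to 71391 bases from the gene, with folds of -1.39 to -1.80 without doxycycline. It had 7.94, 6.62 and 8.04 normalised counts in the 3 DMSO libraries and 0, 0 and 0 in the 3 blebbistatin libraries, under the level tested. Fam198b, now Gask1b, had 3 sites, 3888 to 43684 bases away, with ATAC folds of -1.65 to -1.91. It had 2968, 3169 and 3160.3 normalised counts in the 3 DMSO libraries and 2488, 2523 and 2718 in the 3 blebbistatin libraries, a log2 change of -0.27 (SE 0.0429, limma adjusted p = 0.000209), with no overlap between the groups. 3110009F21Rik, among the genes with 2 sites, had at most 1.99 normalised counts in any library of the blebbistatin table.

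Y27632 was compared in the same way. The RNA comparisons with DMSO share the DMSO libraries, so their values are given side by side. Of 200 linked genes tested with Y27632, 83 were lower (41.5%) and 32 higher (16%) by limma, where 17.8% of all 14833 genes tested were lower and 18.1% higher, and the median log2 change was -0.10. The treatments were then compared directly with edgeR on reads recovered from both tables. Of 203 linked genes, 109 were lower with blebbistatin than with Y27632 (53.7%) and 32 higher, where 25.8% of all 15262 genes tested were lower and 26.5% higher. Counting only genes with a site within 100 kb, a smaller set, 81 were lower and 21 higher. These were 19 lower and 2 higher of 35 tested within 10 kb, and 42 and 14 of 75 at 10 to 50 kb. At 50 to 100 kb they were 20 and 5 of 36.

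Among single genes, Npr3 changed by -0.47 with Y27632 and differed between the treatments by -2.11 (edgeR adjusted p = 7.72e-11). The values were -0.41 and -1.89 (edgeR adjusted p = 8.27e-12) for Thbs1 and -0.49 and -1.73 (edgeR adjusted p = 2.32e-13) for Amotl2. Each of these 3 genes was lower with blebbistatin than with Y27632. Ctgf had 3261, 3529.5 and 3973 normalised counts in DMSO and 3628, 2918 and 3407 with Y27632, and these overlap. Its change with Y27632 was -0.11 (SE 0.0759, limma adjusted p = 0.267), and the difference between treatments was -1.47 (edgeR adjusted p = 2.98e-08). Cyr61 changed by -0.13 (SE 0.0449, limma adjusted p = 0.0372) with Y27632 and differed by -1.87 (edgeR adjusted p = 1.16e-11). That Y27632 call did not hold when DMSO replicate 2 or 3 was left out (adjusted p of 0.119 and 0.116 by limma), nor when Y27632 replicate 1 or 2 was (0.0709 and 0.162), nor by limma without a trend (0.174).

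The treatments were closer to each other for Acta2, Tpm4, Tead3 and Fam198b. Larger differences are given below for Fbn2 and Ppfibp2, and Adamts5, Cdh6, Lurap1l and Sh2d4a differed by -1.22, -1.72, -1.36 and -1.45. Acta2 had 4208, 4163 and 4491 normalised counts in DMSO and 2488, 2495 and 2531 with Y27632, a change of -0.77 (SE 0.0359, limma adjusted p = 6.13e-09). Its difference between treatments was -0.18 (edgeR adjusted p = 0.0149), which was no longer called when blebbistatin replicate 2 was left out (-0.13, edgeR adjusted p = 0.0516). Tpm4 changed by -0.54 with Y27632 and differed by -0.29 (edgeR adjusted p = 1.31e-05), and Tead3 by -0.72 and -0.44 (edgeR adjusted p = 3.43e-06). Fam198b was lower with Y27632 than with blebbistatin, with a change of -0.49 and a difference of 0.24 (edgeR adjusted p = 0.000332). Fbn2 changed by 0.03 (SE 0.241, limma adjusted p = 0.928) with Y27632, with overlapping groups, and differed by -0.91 (edgeR adjusted p = 0.00835). Of the genes that rose, Adam12 changed by 1.20 with Y27632 and differed by 0.67 (edgeR adjusted p = 1.7e-09), Antxr1 by 0.58 and 0.58 (edgeR adjusted p = 7.76e-09), and Ppfibp2 by 0.49 and 0.97 (edgeR adjusted p = 1.47e-06). Plxna4 changed by 0.80 and differed by 0.42 (edgeR adjusted p = 0.016), which was no longer called when blebbistatin replicate 1 (0.34, edgeR adjusted p = 0.0748) or 2 (0.37, 0.0589) or Y27632 replicate 1 (0.37, 0.068) was left out. The authors' deposited Y27632 list held the sites by Acta2, Tpm4, Thbs1, Col5a2, Asap1 and Antxr1, with folds of -1.29, -1.21, -1.39, -1.84, -1.17 and -1.27. It also held 1 of the 2 sites by Cyr61 (-1.37), 1 of the 2 by Ctgf (-1.27), 1 of the 3 past Amotl2 (-1.16), 1 of the 3 by Fam150a (-1.30) and both by 3110009F21Rik (-1.30 each). It held none of the sites by Npr3, Adamts5, Tead3, Fam198b or Adam12, nor the one before Amotl2.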

How the data were processed

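RNA and genomic DNA libraries of mouse tail tendon fibroblasts were measured, 3 per group. Per the submitters' processing notes, HISAT2, Picard, featureCounts, DESeq2, Bowtie2, SAMtools, MACS2, DiffBind and HOMER were used with mm10; their settings and versions are not given in the sources used here. For RNA the authors deposited a normalised signal, which the values show to be read counts over 1 size factor for each library. 100% of values above 0 came out as whole reads (tolerance 0.01), with identical DMSO reads in both tables. Per the file headers, the authors deposited the site lists with log2 group levels, a log2 fold, a p-value and an FDR per site, a motif column, a distance to the nearest start and, in the ATAC list, a GC fraction, which was used only to check coordinates. The lists' start columns count from 0, and coordinates here count from 1. FDR, rank and p-value together gave the approximate number of sites tested. The doxycycline list has a reference column headed as the blebbistatin group, but at 13 sites with the same coordinates it differed by a mean of -0.13 (SD 0.0044) from the level with neither drug and by 1.12 (SD 0.184) from that with blebbistatin, so it was read as the group with neither drug.

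Sites were matched at an overlap of 1 base and linked to genes by the annotation of the list without doxycycline. Distances given for single sites run to the nearest edge of the gene unless its start is named, and distance classes run to the start. Of 351 sites, 332 matched a gene of the RNA tables by symbol, 13 by a RefSeq synonym (GRCm38.p6) and 6 did not match. No genome was used, so the motif column took the place of a search of the site sequences, and AP-1 and CArG box searches were not made. Genes with a mean of at least 10 normalised counts were tested with limma 3.58.1 (R 4.3.3, trend, no replicate block) on log2(normalised count + 1), a scale that understates changes of low genes. Blebbistatin and Y27632 were compared by the quasi-likelihood test of edgeR 4.0.16 on recovered reads with TMM, and DESeq2 1.42.0 was an alternative. Adjusted p-values are Benjamini-Hochberg values over all genes tested, called under 0.05. The overlap and the RNA tests were tested on simulated data. Sample columns without a label numbered 0.

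The sites, gene lists and rules were chosen with earlier results of these data known. Genes named are the 8 lowest and 4 highest RNA changes with blebbistatin among linked genes called, with a mean of at least 100 and no overlap between groups, up to 15 linked genes on the lists, and the 5 with the most sites, ties in alphabetical order; sites named are the 6 lowest, any higher in both, those of list genes and those at the edge of the rule. Alternatives covered overlap, FDR, pseudocount, filter, tool, replicate block, distance and leaving out each library. Some of the genes and lists this rule names are not reported here, though they stay in the counts.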

Additional observations from a re-analysis of the deposited data

How the results depend on the processing

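At an FDR under 0.01 in both lists, 118 sites remained in the set. Of these, 44 were in the list of blebbistatin with doxycycline (37.3%), 45 in the Y27632 list (38.1%) and 40 in the doxycycline list (33.9%). The shares of all 351 sites were 32.8%, 22.2% and 28.8%. An overlap of at least 50% of the shorter site gave 350 sites and of both sites 304. With motif matches counted only in the 300 bases around each centre, 236 sites had one, and 181 had one with the exact letters GGAATG or CATTCC, an alternative chosen after seeing the data. Within 100 kb, where fewer genes were tested, those called higher with blebbistatin than with Y27632 numbered 21, against 32 of all linked genes.

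The same replicate number did not pair the RNA libraries, with correlations of deviations from -0.06 to 0.02 for blebbistatin and from -0.09 to -0.00095 for Y27632. With the replicate block, linked genes lower and higher numbered 119 and 27 for blebbistatin, 81 and 28 for Y27632, and 107 and 32 for the treatments against each other, by limma and edgeR. Leaving out 1 library gave 113 to 120 lower and 24 to 28 higher for blebbistatin, 71 to 82 and 24 to 32 for Y27632, and 105 to 109 and 27 to 33 for the direct comparison. By edgeR and DESeq2, 123 and 115 were lower with blebbistatin and 84 and 75 with Y27632.

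Uncalled changes near 0 turned sign. With 1 library left out, Asap1 ranged from -0.0018 to 0.052 with blebbistatin and from -0.0074 to 0.059 with Y27632, and Fbn2 from -0.12 to 0.12 with Y27632. The difference of Asap1 between treatments was -0.0011 by DESeq2 and -0.0041 without a filter, and -0.038 to 0.030 with 1 library left out. The depth of the site libraries is unknown, since the lists hold group means; for RNA it limits genes under a mean of 10 normalised counts, and 199 of the 309 linked genes could be tested with blebbistatin.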
